A study of Zea mays with 16 samples.

Results

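In whole maize anthers of 1.5 mm, 91 of the 42034 array probes that were not controls gave a signal well above background in every sample of one male-sterile mutant and in no sample of another on the same slide. Of these, 30 were detected in the ms23 mutants and not in the ms32 mutants (ms23-only transcripts, 0.0714% of the probes), and 61 in the ms32 mutants and not in the ms23 mutants (ms32-only transcripts, 0.145%). The transcripts were chosen by the scanner software's mark for a spot well above its background in the 8 mutant samples of slide 1. That contrast is therefore described below without a test. The 91 probes carried 91 different target names.

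RNA of 4 groups was hybridised on 8 two-colour arrays, 4 to a slide, which made 16 samples. The groups were ms23 mutants, fertile siblings from the ms23 family, ms32 mutants and fertile siblings from the ms32 family, all sampled as whole anthers of field-grown plants. On slide 1, each array set an ms23 mutant against an ms32 mutant, with replicate numbers 1 and 2 of each labelled in both Cy3 and Cy5. On slide 2, arrays 1 and 2 held ms32 mutants with ms32 fertile siblings and arrays 3 and 4 held ms23 mutants with ms23 fertile siblings, each group again in both dyes. The mutants of slide 2 carried replicate number 3 and the fertile siblings replicate number 1. The submitters' design text gives 2 biological replicates for each mutant and sibling comparison, but both samples of a slide 2 group share 1 replicate number, so their spread, and the p-values that rest on it, may be technical. The labels do not give the alleles, the parental lines or whether a family shared an inbred background.

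MS23 and MS32 are basic helix-loop-helix transcription factors of maize that are needed for the tapetum, the innermost wall layer of the anther, which surrounds the meiotic cells and later feeds the developing pollen. In plants that lack one or the other factor the cells that should become tapetum divide abnormally, no working tapetum forms and the plant is male sterile. A mutant and its fertile sibling come from the same family, whereas plants of different families can also differ at many other places in the genome.

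The share of probes well above background ranged from 81.19% to 94.79% over the samples, and no probe was saturated. The highest share, with the highest median spot intensity (232), was in a slide 1 ms32 mutant, replicate 2 in Cy5. On slide 1, whose samples chose the transcripts, shares were 82.84% to 91% in ms23 mutants and 84.41% to 94.79% in ms32 mutants. The counts of 30 and 61 are therefore not read as a difference between the mutants. The array has no probe under the names ms23 or ms32, so any probes for the mutated genes could not be picked out. Of 29 marker genes of the tapetum, the meiocytes and green tissue, 1 (am1, needed for entry into meiosis) had probes under its name, and no member carried a marker's name. Only 2 of the 39174 target names of all probes matched the reference gene table, none of them a member, and the transcripts are called by the array's names. Names that begin with TC are tentative consensus assemblies of expressed sequence tags. They made up 15 of the 30 ms23-only and 37 of the 61 ms32-only transcripts, against 64.6% of all probes. Functions cannot be given for the transcripts.

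Each probe reads the hybridisation of 1 short sequence. A lower level of a transcript and a sequence that binds the probe less well cannot be told apart, and in whole anthers neither can fewer cells of a type and less RNA per cell.

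On slide 1, 30286 probes were marked in all 8 mutant samples and 652 in none, so a split by mutant was rare. Levels are given as normalized log2 intensities, and the lowest level at which any probe counted as well above background was 5.15 to 5.92, depending on the sample. Because a transcript of either set was not well above background in the other mutant, its difference there is given only as a bound. For most members the unmarked readings lay above the lowest marked level, so the bound equals the ratio of the 2 group means. By group means, the ms23-only transcripts were at least 1.03-fold to at least 3.59-fold higher in ms23 mutants, with a median bound of 1.48-fold. By the same measure the ms32-only transcripts were at least 1.05-fold to at least 6.01-fold higher in ms32 mutants, with a median bound of 1.48-fold. The smallest bounds do not hold array by array. BM660163, at 1.03-fold, had log2 ratios of ms23 to ms32 mutants of 0.03, 0.18, −0.02 and −0.006 on the slide 1 arrays. TC298029, an ms32-only transcript, had −0.04, −0.21, −0.15 and 0.03. The bound reached 2-fold for 8 of the 30 and for 18 of the 61, so the bound stayed under 2-fold for most members of both sets. These sizes hold for the normalized levels used here, and fitted sizes moved with the processing.

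Whether the fertile siblings follow their family was read from slide 2, whose samples did not choose the transcripts. Of the 30 ms23-only transcripts, 16 were well above background in all 4 ms23 family samples and in none of the 4 ms32 family samples, a pattern that 0.716% of all probes showed. Of the 61 ms32-only transcripts, 28 were marked in all 4 ms32 family samples and in none of the ms23 family, against 0.485% of all probes. More samples of the own family than of the other family were marked for 27 of 30 transcripts (14.4% of all probes) and for 55 of 61 (8.25% of all probes). The numbers were equal for 3 and 5, and 1 ms32-only transcript, CF244604, was marked in 3 ms32 and 4 ms23 family samples.

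**Figure D1:**
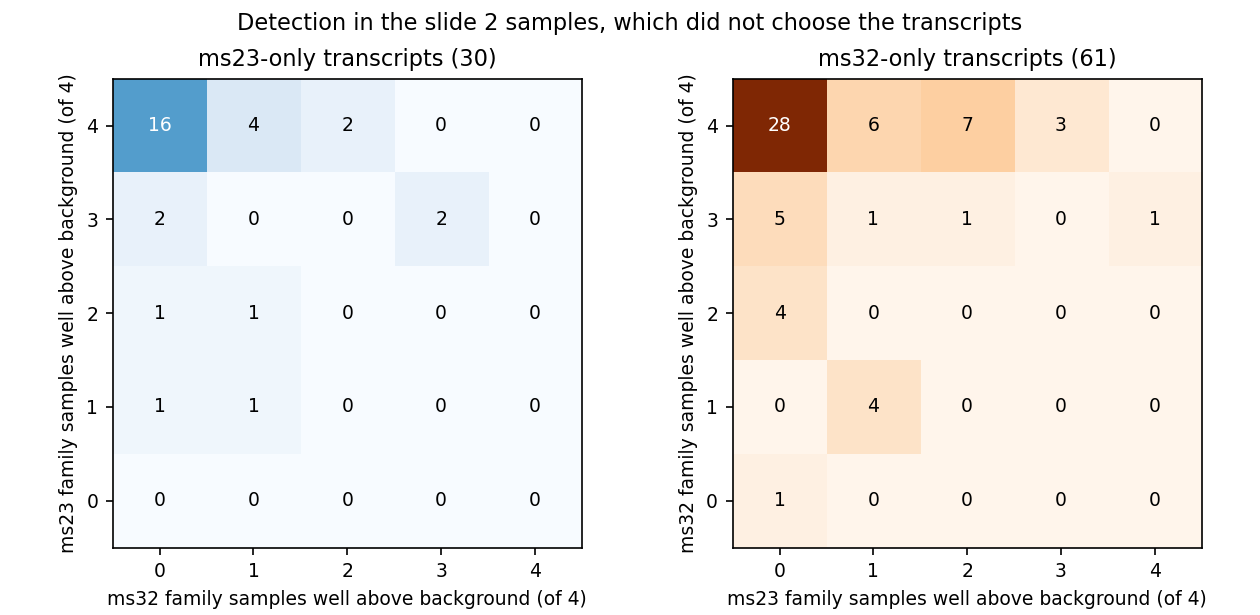
Number of transcripts by how many of the 4 slide 2 samples of the own family (vertical axis) and of the other family (horizontal axis) were well above background, for the ms23-only (left) and ms32-only (right) transcripts. The largest cell is the upper left in both, with 16 of 30 and 28 of 61 transcripts marked in all own and no other family samples.

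The fertile siblings taken alone split in the same way. Both ms23 fertile siblings and neither ms32 fertile sibling were marked for 19 of the 30 ms23-only transcripts (1.68% of all probes). Both ms32 fertile siblings and neither ms23 fertile sibling were marked for 37 of the 61 ms32-only transcripts (1.57% of all probes). The slide 2 mutants gave the pattern of their own family for 19 of 30 (2.4% of all probes) and 33 of 61 (0.887% of all probes).

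Detection in the mutant with none in its fertile sibling was rarer. It was found for 1 of the 30 ms23-only transcripts (0.918% of all probes) and for 0 of the 61 ms32-only transcripts (0.309% of all probes). The 1 transcript was AW400295, which read 6.80 and 7.07 in the ms23 mutants of slide 2 and 6.09 and 5.995 in their fertile siblings. Its log2 ratio of mutant to sibling was 0.90 with an SE of 0.26 (limma adjusted p = 0.226), which did not pass the test. The reverse pattern in the other family, with both fertile siblings marked and neither mutant, occurred for 0 of 30 (0.29% of all probes) and 0 of 61 transcripts (0.164% of all probes).

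The levels were compared as well as the marks. All 4 ms23 family samples of slide 2 lay above all 4 ms32 family samples for 20 of 30 ms23-only transcripts (11.2% of all probes), and the reverse held for 46 of 61 ms32-only transcripts (11.8% of all probes). For the fertile siblings alone, both of the own family lay above both of the other for 22 of 30 (23.4% of all probes) and 53 of 61 (22.8% of all probes). For the slide 2 mutants alone the counts were 23 of 30 (23.7% of all probes) and 52 of 61 (22.8% of all probes). On the log2 scale the fertile siblings of the ms23 family minus those of the ms32 family had a median of 0.64 over the ms23-only transcripts and of −0.64 over the ms32-only transcripts. The difference was positive for 27 of 30 of the first set and negative for 60 of the 60 tested of the second. Over all probes tested the median was 0.02, with 52.5% positive and 47.5% negative. Where the other family is not well above background, such a fitted difference has no exact size.

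**Figure D2:**
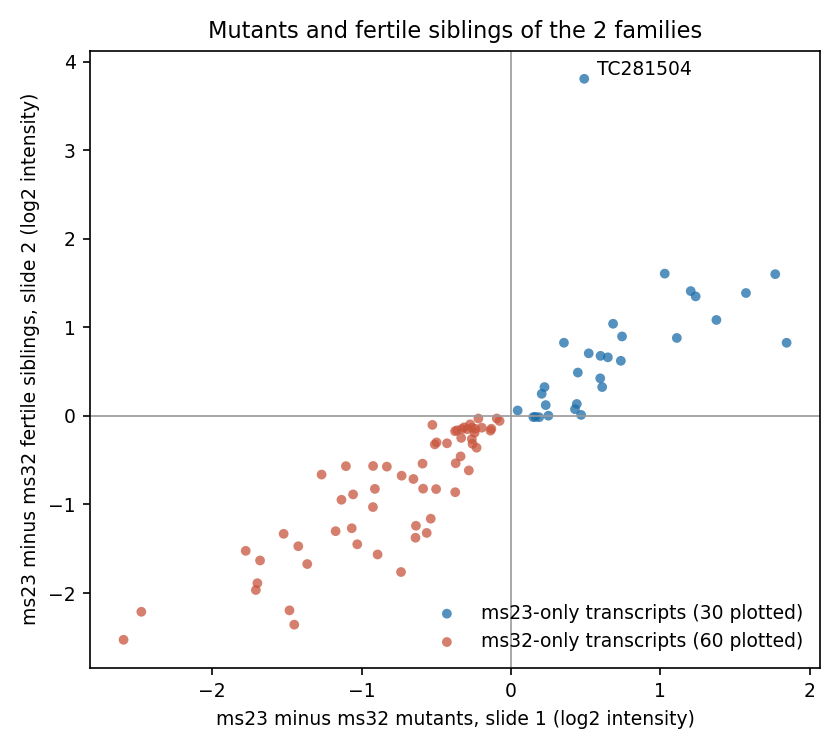
Each point is 1 transcript, placed by the difference of ms23 minus ms32 mutants on slide 1, which chose it (horizontal axis, log2 intensity), and by the difference of ms23 minus ms32 fertile siblings on slide 2 (vertical axis, log2 intensity). Most ms23-only transcripts lie above 0 and the tested ms32-only transcripts below 0 on the vertical axis, and TC281504 lies far above the others at 3.81.

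A limma fit of the 8 slide 2 samples, with a dye term and adjustment over the 39838 probes tested, called few single transcripts. Between families, 1 ms23-only transcript, TC308507, was called higher in the ms23 family (0.432% of all probes) and 0 of 60 ms32-only transcripts were called lower (0.336% of all probes). At an unadjusted p under 0.05 the counts were 13 and 17, against 4.63% and 4.99% of all probes tested. Between the fertile siblings, 1 ms23-only transcript, TC281504, was called (0.429% of all probes) and 0 ms32-only transcripts (0.346% of all probes), with 13 and 16 at an unadjusted p under 0.05 (4.57% and 5.15% of all probes tested). Between the slide 2 mutants, TC308507 was called (0.462% of all probes) and 0 ms32-only transcripts (0.321% of all probes), with 15 and 15 unadjusted (5.25% and 5.05%). Each slide 2 array held 1 family, so these tests rest on differences between 2 arrays and 2 arrays, and the mutants and siblings of a family share their spots. When all 16 samples shared 1 estimate of the spread, 13 ms23-only transcripts (2.64% of all probes) and 15 ms32-only transcripts (2.9% of all probes) were called between families, 10 (2.38%) and 8 (2.28%) between mutants and 9 (2.14%) and 13 (2.46%) between fertile siblings, though that fit includes the slide 1 samples that chose them.

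TC308507 was the 1 ms23-only transcript called between the families. In the ms23 mutants of slide 1 it read 7.11, 7.31, 8.10 and 7.81, and in the ms32 mutants 6.06, 5.83, 6.03 and 5.35. On slide 2 it read 7.86 and 7.68 in ms23 mutants, 7.49 and 7.59 in ms23 fertile siblings, 6.002 and 5.84 in ms32 mutants and 5.93 and 5.95 in ms32 fertile siblings. Every ms23 family sample lay above every ms32 family sample, and mutants and fertile siblings of a family lay close together. On slide 2 the log2 family difference was 1.72 with an SE of 0.174 (limma adjusted p = 0.0408), and between the fertile siblings it was 1.60 (SE 0.177, limma adjusted p = 0.051). The fertile siblings of the ms23 family were at least 3.03-fold higher than those of the ms32 family. The family call was lost without any 1 of the 4 slide 2 arrays, with adjusted p of 0.0513 to 0.245.

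TC292061 had the largest slide 1 bound of the ms23-only transcripts, at least 3.59-fold. It read 7.11, 8.47, 6.99 and 7.52 in the ms23 mutants of slide 1 against 5.75, 5.78, 5.71 and 5.47 in the ms32 mutants. On slide 2 it read 7.01 and 7.45 in ms23 mutants, 6.89 and 6.59 in their fertile siblings, and 5.88 to 5.95 in the 4 ms32 family samples. The groups of the 2 families did not overlap, and the ms23 fertile siblings were at least 1.76-fold higher. The fitted sibling difference of 0.83 did not pass the test (SE 0.208, limma adjusted p = 0.277).

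The other ms23-only transcripts named for their intensity on slide 1 were TC314068, TC301218, BG837133, CF011751, TC312838, TC285072, DT640949 and TC291471. Their fitted sibling differences on slide 2 ran from 0.62 for DT640949 to 1.61 for TC285072 on the log2 scale, none past the test. TC314068 was also marked in 2 of the 4 ms32 family samples of slide 2. In TC285072 the ms23 fertile siblings read 7.30 and 7.76 and the ms32 fertile siblings 5.87 and 5.98. In BG837133 they read 7.56 and 7.01 against 5.94 and 5.93. In both transcripts the siblings of the 2 families did not overlap.

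**Figure D3:**
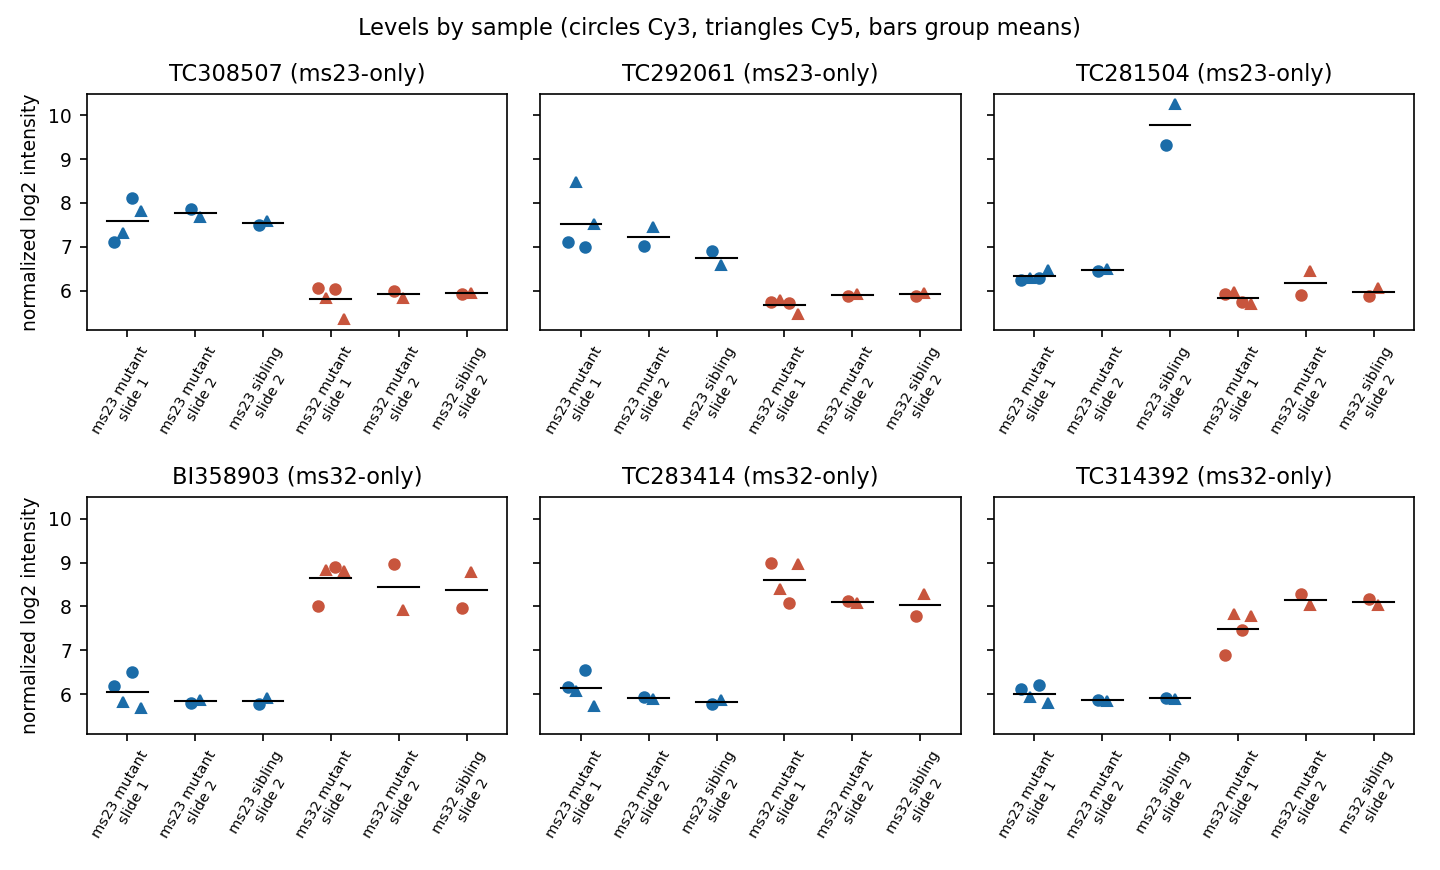
Normalized log2 intensity of 6 transcripts in each of the 16 samples, by group and slide, with circles for Cy3, triangles for Cy5 and bars at group means. In 5 of the 6 the fertile siblings lie on the side of their family's mutants, apart from the other family. In TC292061, which is among these, the ms23 fertile siblings lie below every ms23 mutant. In TC281504 the ms23 fertile siblings, at 9.32 and 10.25, stand above all other samples.

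The ms32-only set held the largest differences apart from TC281504. BI358903 read 8.02, 8.83, 8.90 and 8.82 in the ms32 mutants of slide 1 and 6.18, 5.82, 6.50 and 5.69 in the ms23 mutants, at least 6.01-fold apart. On slide 2 it read 8.98 and 7.91 in ms32 mutants, 7.96 and 8.78 in ms32 fertile siblings, 5.81 and 5.87 in ms23 mutants and 5.77 and 5.92 in ms23 fertile siblings. The fertile siblings of the ms32 family were at least 5.47-fold higher than those of the ms23 family. The fitted sibling difference was −2.53 on the log2 scale (SE 0.452) and did not pass the test (limma adjusted p = 0.145).

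TC283414 read 8.99, 8.39, 8.08 and 8.96 in the ms32 mutants of slide 1 and 6.17, 6.06, 6.56 and 5.73 in the ms23 mutants. On slide 2 its fertile siblings read 7.79 and 8.28 in the ms32 family against 5.77 and 5.87 in the ms23 family, at least 4.40-fold apart. The fitted difference of −2.21 (SE 0.287) did not pass the test (limma adjusted p = 0.0713). The 2 families did not overlap in either transcript, on either slide.

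TC314392 read 6.90, 7.83, 7.46 and 7.77 in the ms32 mutants of slide 1 and 5.79 to 6.20 in the ms23 mutants. On slide 2 it read 8.27 and 8.02 in ms32 mutants, 8.18 and 8.02 in ms32 fertile siblings and 5.83 to 5.91 in the 4 ms23 family samples. The ms32 fertile siblings were at least 4.56-fold higher than those of the ms23 family. The fitted family difference of −2.24 (SE 0.266) did not pass the test (limma adjusted p = 0.0587). It was higher in the ms32 family samples of slide 2 than in the ms32 mutants of slide 1, with no overlap. The other ms32-only transcripts named for their intensity on slide 1 were CO448171, CD946473, TC303424, AW224931, TC311572, TC283742 and TC314667. Their fitted sibling differences ran from −2.36 (SE 1.72) for TC283742 to −1.33 for TC311572, none past the test. TC303424 and TC314667 were also marked in 2 of the 4 ms23 family samples of slide 2, and AW224931 in 1.

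The comparison of a mutant with its own fertile sibling asks whether the mutation itself goes with the level. For the ms23-only transcripts, the ratio of ms23 mutant to fertile sibling had a median of 0.11 on the log2 scale. Of the 30, 0 were called higher (0.385% of all probes) and 1 was called lower (0.928% of all probes) by limma, and at an unadjusted p under 0.05 the counts were 5 and 1 (5.36% and 6.26% of all probes tested). The share higher lay above the background. The 5 included AW400295, TC312838 (0.86, SE 0.237, limma adjusted p = 0.21) and TC314068 (0.61, SE 0.179, limma adjusted p = 0.243). For the 61 ms32-only transcripts the ratio of ms32 mutant to fertile sibling had a median of −0.00 and ran from −0.62 to 0.70. Of these, 0 were called higher (0.035% of all probes) and 0 lower (0.455% of all probes), with 0 and 4 at an unadjusted p under 0.05 (2.94% and 4.87% of all probes tested), so the share lower was near the background. A missed threshold does not show that mutant and sibling were alike. The fit takes part of its spread and its dye term from the slide 1 arrays, whose samples chose the transcripts. Every member also passed its filter through its slide 1 marks.

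**Figure D4:**
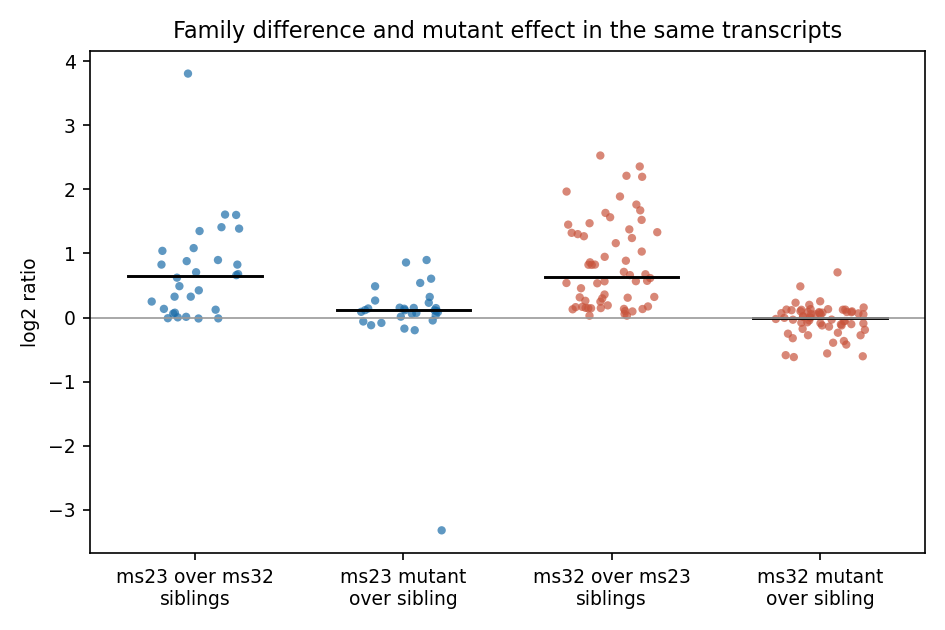
Log2 ratios of the fertile siblings of the 2 families and of mutant over fertile sibling within the own family, 1 point per transcript with a bar at the median, for the ms23-only (blue) and ms32-only (red) transcripts. The family ratios, turned so that the own family is the numerator, have medians of 0.64 in both sets, and the mutant ratios have medians of 0.11 and −0.00, with TC281504 at −3.32.

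TC281504 was the 1 member called between a mutant and its fertile sibling. On slide 1 it read 6.25, 6.29, 6.28 and 6.47 in ms23 mutants and 5.93, 5.96, 5.74 and 5.69 in ms32 mutants, a small difference of at least 1.41-fold. On slide 2 the ms23 mutants read 6.44 and 6.49, the ms23 fertile siblings 9.32 and 10.25, the ms32 mutants 5.91 and 6.45 and the ms32 fertile siblings 5.88 and 6.07. Only the fertile siblings of the ms23 family were far above background.

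The ratio of ms23 mutant to fertile sibling was −3.32 in log2 units with an SE of 0.1997 (limma adjusted p = 0.00296), a 9.98-fold lower level in the mutant, with −2.83 and −3.81 on its 2 arrays. The ms23 fertile siblings were at least 13.9-fold higher than the ms32 fertile siblings (log2 difference 3.81, SE 0.277, limma adjusted p = 0.0196). The ms32 mutant and sibling did not differ past the test, at 0.20 (SE 0.1997, limma adjusted p = 0.981). The 2 mutant effects differed by −3.52 (SE 0.282), which missed the threshold at a limma adjusted p of 0.053. The sibling call was lost without array 3 or array 4 of slide 2 (adjusted p = 0.127 and 0.139), and the mutant call without array 4 (adjusted p = 0.0735). Both samples of each group are dye swaps of 1 replicate number. The mutant call was also lost with dye-swapped arrays averaged (limma adjusted p = 0.0894), on slide 2 arrays alone (0.171) and in the deposited values (0.0506).

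Several members that did not follow their family were dim. Among the ms23-only transcripts these included BU493603, AW065501 and BE051282. BU493603 read 6.05 to 6.36 in ms23 mutants of slide 1 and 5.98 to 6.13 in the 4 ms32 family samples of slide 2. AW065501 read 6.04 to 6.23 in ms23 mutants of slide 1 and reached 6.36 in both ms32 mutants of slide 2. BE051282 was marked in 1 ms23 and 1 ms32 family sample of slide 2. Of the ms32-only transcripts in this class, CF244604, TC294707, TC315259 and TC284559 read 6.04 to 6.59 in the ms32 mutants of slide 1. The levels given for BU493603, AW065501 and these 4 transcripts lay below the median level of all probes, which was 7.08 to 7.16 over the samples. They were not all at the limit of detection. The highest, 6.59 for CF244604, came from a sample whose lowest level well above background was 5.15. Dim levels were not particular to these transcripts. Among those that followed fully, slide 1 means in the own mutant were 6.15 for CF635111 and 6.09 for TC294847, but 7.58 for TC308507 and 8.64 for BI358903. TC303424 and TC314068, each marked in 2 other-family samples of slide 2, had means of 7.75 and 7.38.

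TC306604 was marked in all 4 ms32 mutants of slide 1 and in no sample of slide 2. It read 6.12, 6.10, 5.96 and 5.94 in those mutants against 6.03, 5.87, 5.94 and 5.94 in the ms23 mutants, so its levels overlapped although its marks did not. It was the 1 member not tested on slide 2.

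TC290367 was an ms32-only transcript that did not follow its family. On slide 2 it was marked in all 4 ms32 family samples and in 3 of the 4 ms23 family samples, both ms23 fertile siblings among them. Its ms32 mutants were uneven. On slide 1 they read 7.10, 6.98, 6.48 and 7.23, and on slide 2 they read 9.54 in Cy3 and 6.32 in Cy5 of the same replicate number. The ms32 fertile siblings read 6.81 and 7.65, and the ms23 family samples of slide 2 read 5.96 to 6.28.

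For 3 ms32-only transcripts the array held another probe of the same target name, and none of the 3 repeated the split. TC283742 read 7.37, 6.40, 7.19 and 8.91 in the ms32 mutants of slide 1, while its other probe read 5.81 to 6.02 there and was marked in none of them. That other probe was marked in 1 ms23 mutant of slide 1, at 6.25, and in 1 ms23 fertile sibling of slide 2, at 6.28. TC314458 read 6.72, 6.38, 6.23 and 6.66 in the same samples, while its other probe was marked in none of the 16 samples. TC299167 read 6.25, 6.03, 6.12 and 5.99, while its other probe, which carried an outlier mark on slide 1, was marked in all 16 samples at 12.83 to 15.52. Levels of different probes are not comparable, but the marks show that a transcript name detected in 1 family by one probe could be detected in both families, in neither, or in single samples of the opposite family by another.

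Members just inside and just outside the rule differed in how often they followed. Of probes marked in all 4 ms23 mutants and 1 ms32 mutant of slide 1, 28 of 92 were marked in all ms23 and no ms32 family samples of slide 2, and of those marked in 3 ms23 and no ms32 mutants, 3 of 29 were. For the ms32 side the counts were 31 of 152 and 4 of 51.

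The authors' deposited table of processed intensities listed 29 of the 30 ms23-only transcripts at 0 in all 4 ms32 mutants of slide 1, and 56 of the 61 ms32-only transcripts at 0 in all 4 ms23 mutants. Only 19 of the 30 and 42 of the 61 were above 0 in all 4 mutants of their own family there. These slide 1 samples chose the transcripts, and no share over all probes was computed for these counts. The same table listed 14 of 30 above 0 in both ms23 and at 0 in both ms32 fertile siblings (0.804% of all probes), and 42 of 61 the other way (4.18% of all probes). Why values were set to 0 in that table is not stated in the sources used here.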

How the data were processed

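Total RNA of 1.5 mm maize anthers was amplified and labelled with Cy3 or Cy5, per the labels' protocols. Per the file headers, Feature Extraction 10.5.1.1 read the arrays of Agilent design 016047. As deposited, these files hold linear intensity values of spot and background, with marks of 0 or 1. A deposited table of processed intensity values was an alternative; for it the submitters' processing notes list limma beside the scanner software, and how it was normalized is not stated.

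Median intensities were corrected by normexp (offset 50), normalized by loess within arrays and, for levels, Aquantile between arrays (R 4.3.3, limma 3.58.1, statmod 1.5.0). Control spots (1417) and outlier spots were left out of the fits. Probes entered a test when 50% or more of any group's samples carried the mark for a signal well above background. Family comparisons used limma's separate-channel fit of slide 2 (intraspot correlation 0.927), and mutant to sibling ratios a limma fit of all 8 arrays, both with a dye term, Benjamini-Hochberg adjustment over all probes and a threshold of 0.05. For a bound, the mean of the brighter group was set against the mean of, per sample, the higher of the lowest signal well above background and the dim probe's own; bounds are open to dye bias. The number of arrays limits the precision. Code was tested on simulated data.

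The members and lists were chosen with earlier results of these data known. Transcripts named with values were, per direction, the 10 brightest in the detecting mutant on slide 1, up to 5 of the brightest that did not follow their family, those called against a fertile sibling or between families, and those with another probe of the same target. AW400295, BE051282 and TC306604 were named after their values were seen. Alternatives were another offset, other normalizations, no filter, the scanner software's processed signals, the deposited table, pooled spread, replicate blocks and leaving out each array.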

Additional observations from a re-analysis of the deposited data

Results flagged for a closer look

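Of the 30 groups of 6 own-family mutant samples examined among the named transcripts, 4 held 1 sample whose gap to the nearest other was large for the range of the group. Chance gives about 1 such group in 20. In TC292061, the ms23 mutant of replicate 1 in Cy5 on slide 1 read 8.473, and the next highest ms23 mutant 7.521. The other 3 came from 1 sample, the ms32 mutant of replicate 3 in Cy3 on slide 2. In TC290367 it read 9.544 against a next highest of 7.232, in TC314458 7.933 against 6.718 and in TC284559 6.412 against 6.162. The Cy5 sample of the same replicate number read 6.32 in TC290367 and 6.37 in TC314458.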

How the results depend on the processing

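The number of transcripts depended on the rule. Requiring at least 3 of 4 marks in one mutant and at most 1 in the other gave 318 and 500 transcripts (ms23-only and ms32-only), and requiring all 6 own and none of the 6 other mutants over both slides gave 19 and 33. Leaving out 1 slide 1 array gave 38 to 109 and 90 to 143. Counts called on slide 2 moved with the processing, and are given in the order family, mutants and siblings. Shares over all probes are given above only for the main fit and the pooled spread. The other counts therefore show how calls moved with the processing and are not read as a trait of the members. For ms23-only transcripts called higher, pooled spread gave 13, 10 and 9, the scanner software's processed signals 6, 6 and 4, and the deposited values 14, 14 and 13. Quantile normalization gave 2 for mutants and 2 for siblings, as did an offset of 10. No filter gave 2 for siblings, and no normalization between arrays gave 0 for families. For ms32-only transcripts called lower, pooled spread gave 15, 8 and 13, the processed signals 12, 12 and 12, the deposited values 34, 29 and 30, an offset of 10 gave 4, 3 and 4 and quantile normalization 1, 1 and 1. Leaving out 1 slide 2 array gave 0 to 0 (families), 0 to 2 (mutants) and 0 to 2 (siblings) for the ms23-only set and 0 to 8, 0 to 11 and 0 to 10 for the ms32-only set. In the ms23 mutant against its sibling, the 1 transcript called lower became 0 on slide 2 arrays alone, with dye swaps averaged or in the deposited values, and 0 to 1 without 1 array. Scaling between arrays called 1 higher, and leaving out 1 array 0 to 2. In the ms32 mutant against its sibling the deposited values called 1 lower. Direction was followed by transcript for 21 named transcripts between families and between siblings and for TC281504 between ms23 mutant and sibling, and none of these reversed. Sizes moved more. Over 11 alternatives the log2 family difference on slide 2 ran from 1.595 to 5.657 for TC308507 and from −6.312 to −2.096 for BI358903. The cause of these changes was not tested. With the replicate number as a block, the estimated correlation was below 0 and was set to 0, which left the counts of the ratio fit at 154 higher and 371 lower in ms23. For the family comparisons of slide 2 no such block could be fitted, because no array there holds both families.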
